A study of Homo sapiens with 6 samples.

Results

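The mRNAs of 10 NF-kB genes were followed in Mono-mac-6 cells in which the RNA helicase DDX6 was targeted: the 5 subunits RELA, RELB, REL, NFKB1 and NFKB2, and the inhibitors NFKBIA, NFKBIB, NFKBIE, BCL3 and TNFAIP3. They were taken by symbol from a table of 18806 genes; all 10 were found and all 10 passed the filter on low values. Mono-mac-6 is a human acute myeloid leukemia line of monocytic type, labelled as carrying the MLL-AF9 fusion gene. Every group came from the same single clone expressing Cas9, infected with lentivirus and selected with blasticidin and hygromycin B, so the results describe 1 clone. The control group received the guide sgNS, and the others received sgDDX6.1 or sgDDX6.2, each directed against DDX6. Each group had 2 libraries of poly(A)+ RNA, which the labels place at 8 days after infection, while the design text gives selection times that may run longer. The labels do not say whether replicate libraries stem from separate cultures; the p-values therefore rest on library-to-library spread, which may be technical.

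NF-kB is a family of dimeric transcription factors that drive inflammatory and survival genes in monocytes and many other cells. In resting cells I-kappa-B proteins hold the dimers in the cytoplasm, until I-kappa-B kinases mark these inhibitors for destruction. In the canonical pathway RELA or REL acts with the product of NFKB1; in the non-canonical pathway RELB acts with the product of NFKB2, whose precursor also serves as an inhibitor. Several of these genes, NFKBIA and TNFAIP3 above all, are themselves NF-kB targets and close feedback loops.

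NF-kB dimers bind a DNA decamer, the kappa-B consensus, and matches to it near the starts of the family's own genes are shown here. Windows from 250 bases before to 50 bases after annotated starts were taken from RefSeq (GRCh38.p14) and searched on both strands. Of the 10 members, 8 had a window; RELB and NFKBIE had none. In 7 of these 8, all except RELA, at least 1 window held a match. Over all 8717 tested genes with a window, 8.78% held a match, and over all 35116 windows 5.91% did. In the 30-base stretches below, read along the gene's own strand, capitals mark the matches; some matches on opposite strands overlap.
NFKB2, start 2, chr10:102394462-102394491, plus strand: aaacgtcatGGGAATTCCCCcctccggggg
NFKB2, start 2, chr10:102394490-102394519, plus strand: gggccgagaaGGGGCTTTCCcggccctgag
NFKB2, start 3, chr10:102395519-102395548, plus strand: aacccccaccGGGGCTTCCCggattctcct
NFKB2, start 3, chr10:102395674-102395703, plus strand: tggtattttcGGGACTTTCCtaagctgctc
NFKBIA, chr14:35404811-35404840, minus strand: tgactggcttGGAAATTCCCcgagcctgac
TNFAIP3, chr6:137867188-137867217, plus strand: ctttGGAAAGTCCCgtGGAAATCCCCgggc
BCL3, chr19:44748700-44748729, plus strand: ccggctgcagGGGAAGTCCCggcgcccggc
NFKB1, chr4:102501300-102501329, plus strand: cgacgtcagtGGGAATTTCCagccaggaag
REL, chr2:60881518-60881547, plus strand: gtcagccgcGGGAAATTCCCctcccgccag
NFKBIB, start 2, chr19:38899932-38899961, plus strand: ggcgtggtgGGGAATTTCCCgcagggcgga
NFKB2, with 3 annotated starts, held the most matches. The pair in TNFAIP3 began 67 and 55 bases before the RefSeq start used for its window. That start lies downstream of the gene start in GENCODE given below. In TNFAIP3, NFKB2, BCL3, REL and NFKBIB the matches lie inside the gene bounds of GENCODE. A match describes the letters and is no evidence of binding.

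The values were TPM, transcript shares of a library that are scaled for length, so levels can be set side by side between genes; they carry no read depth. Replicate libraries were alike (Pearson r of 0.998 over genes, themselves no replicates). DDX6 itself had 102.12 and 99.5 TPM in sgNS and between 51.97 and 54.41 TPM in the 4 sgDDX6 libraries, a log2 fold change of -0.91, so this gene parts the libraries as labelled. Among 10 monocyte markers, LYZ, S100A9 and CD68 were abundant, while CD14 lay between 0.37 and 1.36 TPM. Between sgNS and sgDDX6, 6 of these markers rose and 4 fell, all called by limma (adjusted p under 0.05), against 66.7% of all genes tested. Their summed level went from between 12404 and 12902 TPM to between 21434 and 21997. LYZ and S100A9 made up most of that sum, with mean TPM of 9781 and 2485 in sgNS and 14408.5 and 6929 over both guides. The 4 that fell were MPO (log2 fold change -1.23), FCGR1A (-0.59), CD14 (-0.49) and ITGAM (-0.34). ITGAM was not called with sgDDX6.2 alone (-0.22), and CD33, which rose over both guides, was not called with sgDDX6.1 alone (0.05). Between the guides 6 of the 10 monocyte markers differed, against 35.6% of all genes tested. Of 16 markers of other cell types, CD3E, MS4A1, KRT5 and HBB were listed at 0 in every library. The 16 summed to between 90.1 and 92.5 TPM in sgNS, 148.7 to 152.0 in sgDDX6.1 and 213.8 to 224.2 in sgDDX6.2. PECAM1 made up most of each sum, with 66.86 and 64.64 TPM, 138.83 and 135.36, and 192.08 and 200.46 in these groups. Without PECAM1 and KRT18 the other 14 summed to 6.01 and 5.64 TPM in sgNS, 2.4 and 1.96 in sgDDX6.1, and 5.34 and 4.9 in sgDDX6.2. Of the 4 among the 16 that were tested, PECAM1, which monocytes also express, rose, while CD8A, CD79A and KRT18 fell over both guides. With sgDDX6.2 alone none of these 3 was called (-0.08, -0.20 and -0.16), and all 4 differed between the guides. Over all genes tested, 66.7% were called over both guides, 64.2% with sgDDX6.2 and 35.6% between the guides. The part of these shifts in the results below was not tested.

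With DDX6 targeted, the mRNAs of RELB and NFKB2 fell the furthest of the 10, 3 inhibitors fell less, and RELA rose slightly. In bulk RNA, fewer cells of a type and less RNA per cell cannot be told apart. Averaged over both guides, 7 of the 10 members passed an adjusted p of 0.05 (limma on log2(TPM + 1), Benjamini-Hochberg adjustment over 11151 genes). RELB, NFKB2, NFKBIA, BCL3 and TNFAIP3 were lower, and RELA and NFKBIE were higher. Over all genes tested 66.7% passed, 32.9% as lower and 33.8% as higher, so the members' share of calls was near the background. The median log2 fold change was -0.18 over the members and 0.00 over all genes. In 7 members the 4 sgDDX6 libraries lay wholly on 1 side of both sgNS libraries, 2 higher and 5 lower, against 63.4% of all genes tested (31.5% higher and 31.9% lower). These 7 are not the 7 called: NFKBIB was separate without a call, and NFKBIE was called with overlapping libraries.

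**Figure D1:**
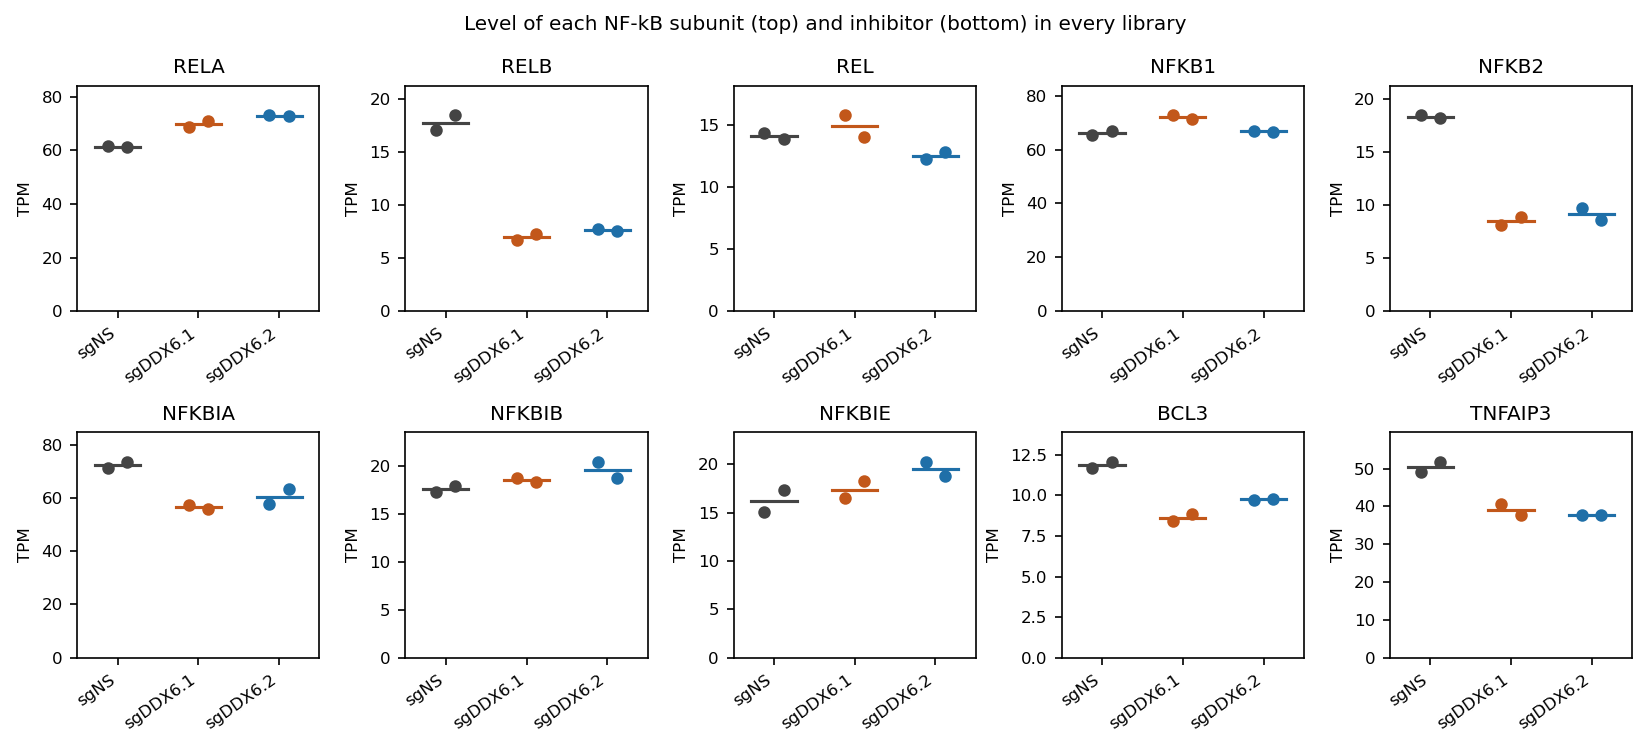
TPM of each member (vertical axes, from 0, scaled per gene) in the libraries of sgNS, sgDDX6.1 and sgDDX6.2; points are single libraries and bars are means of 2. RELB and NFKB2 drop from 17.04 or more TPM to 9.76 or less, while RELA and NFKBIB sit slightly higher with DDX6 targeted.

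RELB (chromosome 19, 45001430 to 45038198, GRCh38) encodes the Rel subunit of the non-canonical pathway. Its level was 17.04 and 18.44 TPM in sgNS, 6.71 and 7.30 in sgDDX6.1, and 7.78 and 7.58 in sgDDX6.2. Every sgDDX6 library lay below both sgNS libraries, with a wide gap between them. The mean TPM was 2.42 times higher in sgNS than over both guides. The log2 fold change was -1.17 (SE 0.07, limma adjusted p = 3.48e-08), and it stayed between -1.26 and -0.88 over 17 alternative settings. Of all genes tested, 1.73% fell as far or further.

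NFKB2 (chromosome 10, 102394110 to 102402529) encodes the partner of RELB as a precursor that is cut to the active subunit. Its mRNA had 18.48 and 18.24 TPM in sgNS, 8.11 and 8.89 in sgDDX6.1, and 9.76 and 8.56 in sgDDX6.2. The groups again did not overlap, and the libraries of the DDX6 guides were mixed with each other. The mean was 2.08 times higher in sgNS, with a log2 fold change of -0.98 (SE 0.07, limma adjusted p = 2.24e-07). As far a fall or further was seen in 2.48% of genes tested. RELB was the only member called at least 2-fold lower on the log2(TPM + 1) scale over both guides, against 2.39% of all genes. With sgDDX6.1 alone NFKB2 passed as well, against 2.59% of all genes.

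**Figure D2:**
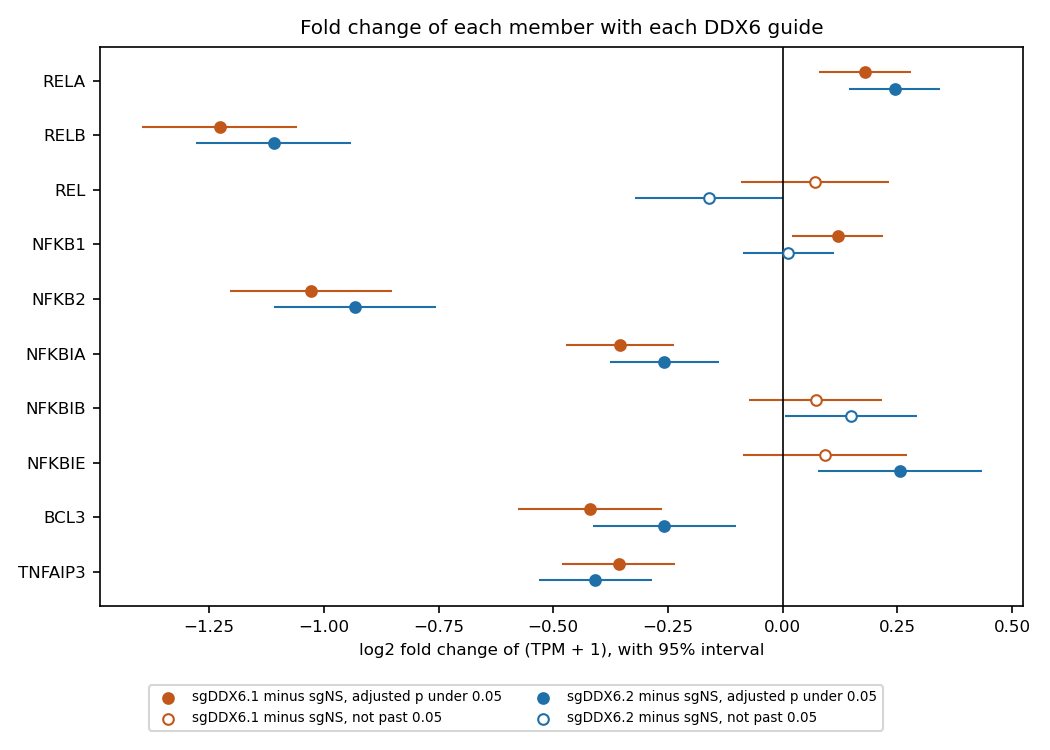
Log2 fold change of (TPM + 1) against sgNS (horizontal axis) for each member with sgDDX6.1 and sgDDX6.2; bars are 95% intervals from limma and filled points have an adjusted p under 0.05. RELB and NFKB2 lie between -1.23 and -0.93, and the other members lie between -0.42 and 0.26.

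RELA (chromosome 11, 65653596 to 65663094), the main activating subunit of the canonical pathway, rose. It had 61.69 and 61.18 TPM in sgNS, 68.55 and 70.90 in sgDDX6.1, and 73.05 and 72.85 in sgDDX6.2. All sgDDX6 libraries were above both controls, by a small margin. The log2 fold change was 0.21 (SE 0.04, limma adjusted p = 0.000537); 53.8% of genes tested moved at least this far in either direction.

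NFKB1 (chromosome 4, 102501329 to 102617302) encodes the precursor of the canonical DNA-binding partner. Its libraries had 65.37 and 66.89 TPM in sgNS, 72.70 and 71.22 in sgDDX6.1, and 66.91 and 66.54 in sgDDX6.2. Only the sgDDX6.1 libraries stood above the controls. Over both guides the log2 fold change was 0.07 (95% interval -0.02 to 0.15, adjusted p = 0.154). With sgDDX6.1 it was 0.12 (adjusted p = 0.0371). That call was lost without any 1 of the 6 libraries except sgDDX6.1 replicate 2, with adjusted p between 0.00366 and 0.167 over all alternatives.

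REL (chromosome 2, 60881521 to 60931610) encodes c-Rel, a subunit of lymphoid and myeloid cells. It had 14.38 and 13.89 TPM in sgNS, 15.78 and 14.06 in sgDDX6.1, and 12.27 and 12.82 in sgDDX6.2. The sgDDX6.1 libraries overlapped the controls and the sgDDX6.2 libraries lay below them. No call was made over both guides, at -0.04 (95% interval -0.18 to 0.10, adjusted p = 0.556).

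The order of subunit levels changed with these shifts. In sgNS, NFKB1 was highest, then RELA, NFKB2, RELB and REL; the libraries of NFKB2 and RELB overlapped each other, and those of the other neighbours did not. In each sgDDX6 group NFKB2 and RELB were the lowest of the 5, below REL. RELB and NFKB2 together made up 20.1% and 20.5% of the summed subunit TPM in the sgNS libraries. In sgDDX6.1 they made up 8.62% and 9.39%, and in sgDDX6.2 10.3% and 9.59%. The ratio of RELA to RELB, in TPM, was 3.62 and 3.32 in sgNS and between 9.39 and 10.2 in the sgDDX6 libraries. For NFKB1 over NFKB2 the ratio was 3.54 and 3.67 in sgNS and between 6.86 and 8.96 with DDX6 targeted. The sum of all 5 subunits moved little, from 177.0 and 178.6 TPM in sgNS to between 168.4 and 172.4. These sums were chosen after the gene values were seen and carry no test.

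**Figure D3:**
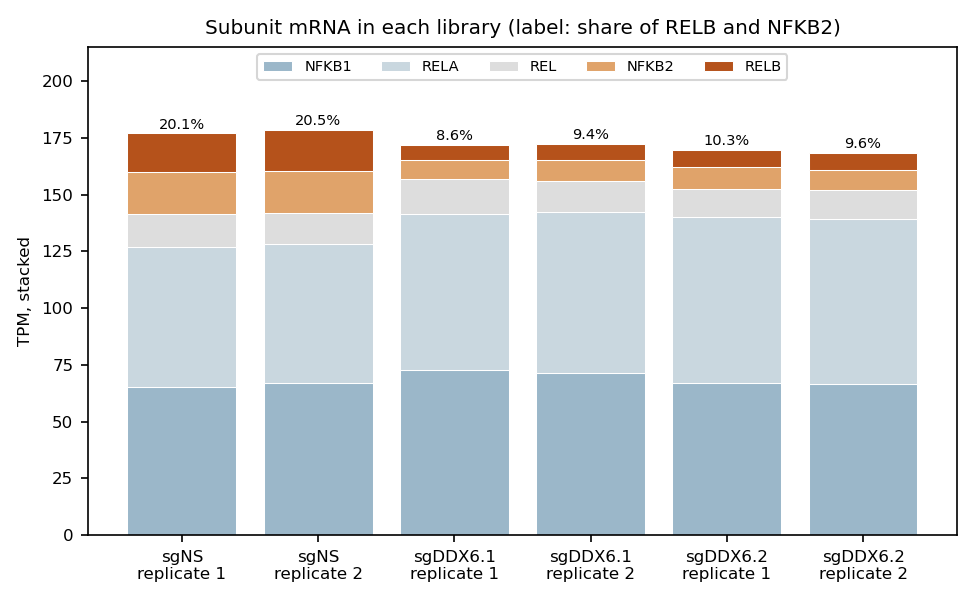
TPM of the 5 subunits stacked (vertical axis) for each of the 6 libraries, with the share of RELB and NFKB2 printed above each bar. The share is 20.1% and 20.5% in sgNS and between 8.6% and 10.3% in the sgDDX6 libraries, on totals of 168.4 to 178.6 TPM.

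Among the inhibitors, NFKBIA, BCL3 and TNFAIP3 fell, by less than RELB and NFKB2. NFKBIA (chromosome 14, 35401511 to 35404749) encodes I-kappa-B alpha, the fast feedback inhibitor that NF-kB induces. It was the most abundant member in sgNS, with 71.45 and 73.61 TPM, against 57.23 and 55.86 in sgDDX6.1 and 57.80 and 63.33 in sgDDX6.2. The sgDDX6 libraries were all below the controls, sgDDX6.2 replicate 2 being the nearest. Its log2 fold change was -0.31 (SE 0.05, limma adjusted p = 0.00012). The ratio of NFKBIA to RELA, in TPM, was 1.158 and 1.203 in sgNS and between 0.788 and 0.869 in the sgDDX6 libraries. For NFKBIA, NFKBIB and NFKBIE summed over the 5 subunits the ratio was 0.586 and 0.610 in sgNS. It was 0.538 and 0.536 in sgDDX6.1, and 0.580 and 0.599 in sgDDX6.2, which overlapped the controls. Like the subunit sums, these ratios were chosen after the gene values were seen and carry no test.

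TNFAIP3 (chromosome 6, 137867188 to 137883312) encodes a ubiquitin-editing enzyme that shuts off signalling upstream of the I-kappa-B kinases. It had 48.98 and 51.76 TPM in sgNS, 40.55 and 37.67 in sgDDX6.1, and 37.64 and 37.73 in sgDDX6.2. Controls and sgDDX6 libraries did not overlap. The log2 fold change was -0.38 (SE 0.05, limma adjusted p = 2.78e-05), and 14.4% of genes tested fell as far or further.

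BCL3 (chromosome 19, 44747705 to 44760044) encodes an atypical nuclear I-kappa-B protein that can act with NF-kB dimers on DNA. Its mRNA was the lowest of the 10 in sgNS, at 11.68 and 12.06 TPM, and had 8.39 and 8.85 in sgDDX6.1 and 9.74 and 9.79 in sgDDX6.2. All 4 sgDDX6 libraries were lower than the controls. The log2 fold change was -0.34 (SE 0.06, limma adjusted p = 0.000475).

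NFKBIB and NFKBIE, which encode I-kappa-B beta and epsilon, did not fall. NFKBIB (chromosome 19, 38899700 to 38908893) had 17.21 and 17.90 TPM in sgNS, 18.70 and 18.30 in sgDDX6.1, and 20.40 and 18.76 in sgDDX6.2. The sgDDX6 libraries were higher without overlap, yet the log2 fold change of 0.11 (95% interval -0.01 to 0.24) had an adjusted p of 0.108. NFKBIE (chromosome 6, 44258166 to 44265788) had 15.08 and 17.39 TPM in sgNS, 16.48 and 18.24 in sgDDX6.1, and 20.27 and 18.81 in sgDDX6.2. Its controls spread widely, and sgNS replicate 2 lay above sgDDX6.1 replicate 1. The rise of 0.17 (SE 0.07) had an adjusted p of 0.0458, which ranged from 0.00915 to 0.444 over 17 alternatives and passed in 9 of them. The change was 0.08 without sgNS replicate 1 (adjusted p = 0.444), 0.14 without sgDDX6.1 replicate 2 (adjusted p = 0.129) and 0.15 without sgDDX6.2 replicate 1 (adjusted p = 0.12).

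Both guides were compared with the same sgNS libraries, so their values are given side by side. RELB had a log2 fold change of -1.23 with sgDDX6.1 and -1.11 with sgDDX6.2, and NFKB2 had -1.03 and -0.93. For NFKBIA the values were -0.35 and -0.26, for BCL3 -0.42 and -0.26, for TNFAIP3 -0.36 and -0.41, and for RELA 0.18 and 0.24, all past the threshold. Each guide called 7 members, where sgDDX6.1 called 61.6% and sgDDX6.2 64.2% of all genes. NFKB1 was called with sgDDX6.1 and NFKBIE with sgDDX6.2 (0.26, adjusted p = 0.0162); the NFKBIE call was lost without sgNS replicate 1 (adjusted p = 0.146) and without sgDDX6.2 replicate 1 (adjusted p = 0.113).

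Tested directly, sgDDX6.2 against sgDDX6.1 called 1 member, REL, which was lower with sgDDX6.2 by -0.23 (SE 0.07, limma adjusted p = 0.0309). Of all genes 35.6% were called between the guides, or 3971, and fewer without sgDDX6.1 replicate 1 (2579), sgDDX6.2 replicate 1 (2252) or sgDDX6.2 replicate 2 (2316). The REL call was lost without each of these 3 libraries, with adjusted p of 0.166, 0.17 and 0.0808. For RELB the guides differed by 0.12 (95% interval -0.05 to 0.29), and for NFKB2 by 0.10 (-0.08 to 0.27). The other 7 members had differences between -0.11 and 0.16, not past the threshold.

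**Figure D4:**
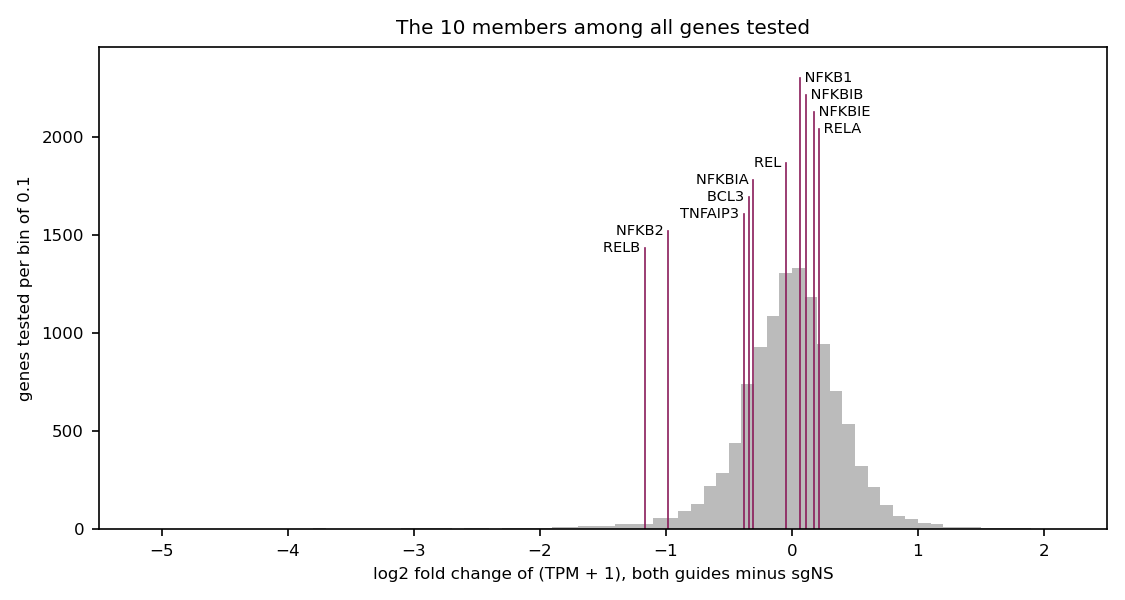
Number of genes tested per bin of 0.1 (vertical axis) by log2 fold change of (TPM + 1), both guides minus sgNS (horizontal axis); vertical lines mark the 10 members. RELB at -1.17 and NFKB2 at -0.98 lie in the lower tail, and the other 8 lie between -0.38 and 0.21.

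The transcripts of the members differ widely in make-up, which the choice of genes did not use. The reference transcripts of RELB, NFKB2 and BCL3 have a GC content of 65.4%, 61.1% and 67.4%, above the third quartile of 57.3% over tested genes. RELA, NFKBIB and NFKBIE, which did not fall, lie at 60.0%, 64.6% and 61.0%. NFKBIA at 53.1% and TNFAIP3 at 49.5% fell as well and lie below the third quartile. Members with and without a fall were found above it. REL stands apart, with 38.7% GC, a 3' UTR of 9075 bases and 25 copies of the AU-rich element core ATTTA in it. TNFAIP3 has 5 copies, NFKBIA and NFKB1 have 3 each and NFKB2 has 1; RELA, RELB, NFKBIB, NFKBIE and BCL3 have 0. The median over tested genes is 2. With a trend on GC content removed from each library, RELB had -1.26, NFKB2 -1.05, NFKBIA -0.32, BCL3 -0.43, TNFAIP3 -0.37 and RELA 0.15, all still called. NFKBIE was no longer called (0.11, adjusted p = 0.138). Exons of NFKBIB overlap those of SIRT2 on the opposite strand. Exons of TNFAIP3, RELA, REL and BCL3 overlap annotated non-coding RNAs, on the same strand for REL and BCL3. Whether counting used strand is not given in the sources used here.

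The kappa-B matches were found in members that fell and in members that were not called. Of the 5 members that fell, NFKB2, NFKBIA, BCL3 and TNFAIP3 held matches and RELB had no window. NFKB1, REL and NFKBIB held matches and passed no test over both guides. RELA, which rose, held none in its windows. Of 20 tested inflammatory and survival targets with a window, 9 held a match.

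The other genes of the pathway moved in both directions. Of 4 tested ligands, 2 rose and 1 fell, or 75% called against 66.7% of all genes tested (33.8% higher and 32.9% lower), with a median log2 fold change of 0.30 against 0.00. TNFSF14, a cytokine that signals to the non-canonical pathway through LTBR, rose from 1.57 and 1.37 TPM to between 3.66 and 3.89. On the log2 scale this was 0.95 with a pseudocount of 1 and between 0.44 and 1.30 over the alternatives. TNFSF13 rose by 0.71, and TNFSF13B, the B cell activating factor BAFF, fell by 0.57, from 124.42 and 106.35 TPM to between 71.68 and 83.45. IL1B had 41.12 and 40.70 TPM in sgNS and between 36.18 and 39.72 in sgDDX6, without a call (-0.11, adjusted p = 0.0651); it was called without sgDDX6.1 replicate 2 (adjusted p = 0.0321). The ligands IL1A, IL18, TNFSF11 and CD40LG did not pass the filter. Of 11 ligands listed, 8 were found by symbol in the deposited table. TNF, LTA and LTB were not among these 8 and were not analysed here.

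Of 12 receptor genes only 4 passed the filter, of which 2 rose and 1 fell (75% called, against 66.7% of all genes; median 0.12). TNFRSF1B, the second TNF receptor, had 60.31 and 62.94 TPM in sgNS, 104.25 and 103.66 in sgDDX6.1, and 85.53 and 88.53 in sgDDX6.2. The groups were fully separate, with sgDDX6.1 highest, and the log2 fold change was 0.62 (limma adjusted p = 9.52e-08). TNFRSF1A, the main TNF receptor, rose by 0.17 (adjusted p = 0.00572), and IL1RAP, the IL-1 co-receptor, fell by 0.31 (adjusted p = 0.00129), or by 0.14 with the GC trend removed. LTBR, the receptor of the non-canonical pathway, had 56.10 and 63.13 TPM in sgNS and between 60.07 and 66.44 in sgDDX6. It was not called (0.07, adjusted p = 0.236); without sgNS replicate 2 it was (0.15, adjusted p = 0.0301), and without sgNS replicate 1 it had -0.01.

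Among adaptors and ubiquitin enzymes 8 of 23 tested rose, 6 fell and 9 were not called (60.9% called, against 66.7% of all genes; median 0.03). RBCK1, a subunit of the linear ubiquitin ligase that feeds the I-kappa-B kinases, fell the furthest. It had 42.04 and 47.57 TPM in sgNS and between 20.16 and 22.66 in the sgDDX6 libraries, a log2 fold change of -1.06 (SE 0.06, limma adjusted p = 3.9e-08). The deubiquitinase CYLD, a brake on the pathway, fell by 0.43, while the kinases IRAK1 and IRAK2, which relay signals from Toll-like and IL-1 receptors, rose by 0.26 and 0.47.

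The list of I-kappa-B kinases and the kinases above them also held partner proteins that are not kinases, such as TAB1 and TANK. Its genes rose in 5 cases of 13, fell in 1 and were not called in 7 (46.2% called, against 66.7% of all genes, median 0.13). CHUK, the kinase subunit used by the non-canonical pathway, had 45.43 and 42.38 TPM in sgNS and between 49.08 and 58.23 in sgDDX6, a rise of 0.27 (limma adjusted p = 0.000439). TAB1, an activator of the kinase TAK1, rose by 0.53 and the I-kappa-B kinase relative IKBKE by 0.45. TANK, an adaptor of these kinases, fell by 0.22, or by 0.07 with the GC trend removed. With that trend removed, as with quantile normalization, 10 of the 13 were called, 8 up and 2 down. Of all genes, 7768 of 10865 were called with the trend removed, 4321 higher and 3447 lower. With quantile normalization 7518 of 11151 were called, 3995 higher and 3523 lower.

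Other I-kappa-B relatives and Rel regulators fell in 5 of 8 cases and rose in 2 (87.5% called, against 66.7% of all genes; median -0.26). NFKBIZ, a nuclear I-kappa-B protein that NF-kB induces, had 36.89 and 35.70 TPM in sgNS and between 21.96 and 27.53 in sgDDX6, a change of -0.52 (limma adjusted p = 1.04e-05). NKIRAS2, which binds I-kappa-B proteins and slows their loss, fell by 0.50 and the nuclear cofactor AKIRIN2 by 0.40. COMMD1, which limits NF-kB by promoting removal of RELA, rose from 43.03 and 39.17 TPM to 57.87 and 65.33 in sgDDX6.1 and 83.60 and 82.41 in sgDDX6.2, or by 0.78.

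Of 30 inflammatory and survival targets, 23 were tested; 10 fell, 7 rose and 6 were not called (73.9% called, against 66.7% of all genes; median -0.14). The neutrophil chemokine CXCL8 had 155.02 and 148.80 TPM in sgNS and between 74.01 and 82.95 in sgDDX6. IER3, an early response gene, had 60.09 and 61.30 TPM in sgNS and between 25.25 and 31.02 in sgDDX6, a log2 fold change of -1.08 (limma adjusted p = 1.77e-08). CXCL2 went from 7.58 and 7.95 TPM to between 1.93 and 2.56, where its log2 fold change was -1.44 with a pseudocount of 1 and -0.82 with 5. CXCL1, CXCL2 and CXCL3 have similar sequences, so reads may be divided among them. CXCL1 went the other way, from 1.78 and 2.5 TPM to between 2.83 and 4.04 (0.50, adjusted p = 0.00113); CXCL1 is named here after its values were seen. CXCL10, which interferon also induces, went from 29.23 and 26.32 TPM to 4.16 and 3.45 in sgDDX6.1 and 7.36 and 5.73 in sgDDX6.2. The sgDDX6 libraries of CXCL8, IER3, CXCL2 and CXCL10 were all below both controls.

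**Figure D5:**
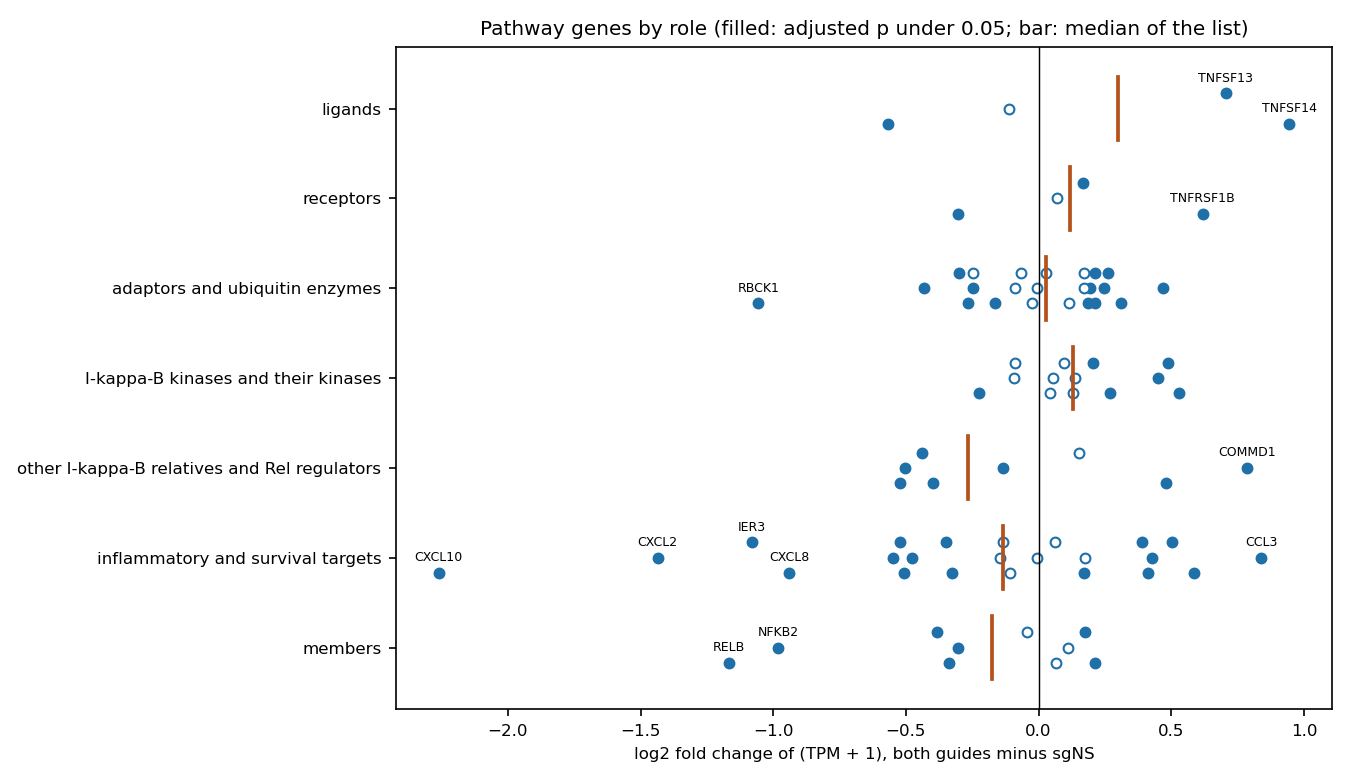
Log2 fold change of (TPM + 1), both guides minus sgNS (horizontal axis), for tested genes of each pathway role and the 10 members; filled points have an adjusted p under 0.05 and bars are list medians. Genes of every role lie on both sides of 0, with list medians between -0.26 and 0.30, and RELB, NFKB2, RBCK1, IER3, CXCL8, CXCL2 and CXCL10 lie furthest to the left.

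The genes whose pattern was most like that of RELB over the 6 libraries were PROSER2, RNF187 and CDC42EP1, with Pearson r of 0.999, 0.998 and 0.998 of log2(TPM + 1) among 9297 genes compared. Of these 9297 genes, 116 reached an r of at least 0.99. In 63.4% of all genes tested the sgNS and sgDDX6 libraries did not overlap. The part of that gap in the r values was not tested. Among the genes named the size of the change differed: RNF187 had a log2 fold change of -1.22, CDC42EP1 -0.99 and PROSER2 -0.26.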

How the data were processed

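Poly(A)+ RNA of 6 libraries was analysed from the table the authors deposited, which holds TPM per gene symbol; each column summed to 1000000 within rounding. The submitters' processing notes list RSEM 1.2.31 and the build GRCh38; aligner and annotation: not given in the sources used here. Since TPM is a share of each library, depth is unknown and no count-based interval was given. From these values log2(TPM + 1) was computed for the 11151 genes that reached 1 TPM in 2 libraries, and limma 3.58.1 (R 4.3.3, variance trend, 3 residual degrees of freedom) estimated a mean per group from the 6 libraries. P-values were two-sided and adjusted over all genes tested by Benjamini-Hochberg, with a threshold of 0.05. The pseudocount makes fold changes of low genes appear smaller than they are. The procedure was run on simulated data with 200 changed genes, independent normal spread and the same change with both guides. That setting is unlike these data, so it cannot bear on the share of genes called here. Groups and replicate numbers came from the titles.

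Members and gene lists were chosen with earlier results of these data known. All members and DDX6 are named, then the 4 genes of each pathway list with the lowest adjusted p over both guides, then the 3 genes most correlated with the member of largest change; other names were chosen after their values were seen. Gene coordinates, transcripts and overlaps come from GENCODE release 29 (GRCh38), in which 97.44% of tested genes had a transcript, and promoter windows from RefSeq. Alternatives were pseudocounts, filters, scalings, variance models, the replicate number as a block, single libraries left out and only the groups compared; subtracting, in each library, a loess curve fitted on the GC content of transcripts was an alternative chosen after seeing the data.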

Additional observations from a re-analysis of the deposited data

Results flagged for a closer look

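Of 35 genes (the 10 members, DDX6 and the pathway genes named by rule), 7 differed between the DDX6 guides by the direct test. The test was limma with an adjusted p under 0.05, on a background of 35.6% of all genes. Genes named on other grounds were not counted. Of those under the other observations below, CCL3, CCL5 and ICAM1 differed too, while PLAU, GADD45B, SOD2 and CD83 did not. With sgDDX6.2 minus sgDDX6.1, REL had a log2 difference of -0.23 (adjusted p = 0.0309), from 0.07 with sgDDX6.1 and -0.16 with sgDDX6.2 against sgNS. COMMD1 rose more with sgDDX6.2, by 0.43 (adjusted p = 0.00056), and so did TNFSF13, by 0.55 (adjusted p = 0.00098). TNFRSF1B (-0.25, adjusted p = 0.00161), IRAK1 (-0.20, adjusted p = 0.00498) and CHUK (-0.17, adjusted p = 0.0406) rose more with sgDDX6.1. CXCL10 fell further with sgDDX6.1, the difference being 0.65 (adjusted p = 0.0012).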

How the results depend on the processing

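RELB, NFKB2, NFKBIA, BCL3, TNFAIP3 and RELA kept their direction and their call over both guides and with each guide in all 17 alternatives. Over both guides, 159 of 170 member values kept direction and side of the threshold, 8 lost a call (all NFKBIE), 2 gained one (NFKB1, NFKBIB) and 1 changed sign. Between the guides the count of members called was 0 with no filter, 2 with the GC trend removed, and 0 to 1 with single libraries left out; genes called then ranged from 2252 to 4121. Replicate numbers do not pair the libraries by the labels: deviations correlated at 0.262, 0.0977 and 0.0399 between groups. With the replicate number as a block, 2 members were called between the guides (REL and NFKB1) and 7859 genes over both guides, against 7434; IL1B was then called too (-0.11, adjusted p = 0.043). Receptors called numbered 5 with no filter, against 3. Genes called in the I-kappa-B kinase list numbered 10 with quantile normalization and 10 with the GC trend removed, against 6. Each value that changed sign had no call. With the GC trend removed, REL had 0.10 over both guides and 0.0073 with sgDDX6.2, RELA -0.0085 and NFKBIB -0.021 between guides, and LTBR -0.0017. With single libraries left out, NFKBIE ranged from -0.0040 (without sgNS replicate 1) to 0.19 with sgDDX6.1, NFKB1 from -0.0035 (the same library) to 0.029 with sgDDX6.2, and LTBR from -0.013 (the same library) to 0.15 over both guides. REL ranged from -0.0070 (without sgDDX6.1 replicate 1) to 0.15 with sgDDX6.1, and TNFAIP3 from -0.10 to 0.00056 (the same library) between guides. The cause of these shifts was not tested. With a library left out, the lone library of its group is assumed to vary like the other groups.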

Other observations

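Within the list of inflammatory and survival targets, other genes than those named by rule also parted in direction; they were chosen after their values were seen. The macrophage chemokine CCL3 had 5.31 and 5.91 TPM in sgNS, 8.75 and 8.50 in sgDDX6.1, and 13.65 and 13.31 in sgDDX6.2, a rise of 0.84 (limma adjusted p = 6.13e-07); near-identical copies of this gene can share its reads. PLAU, the urokinase gene, rose by 0.59, GADD45B, a stress response gene, by 0.43 and SOD2, the mitochondrial superoxide dismutase, by 0.41. ICAM1, an adhesion molecule, went from 47.50 and 49.43 TPM to 31.71 and 29.71 in sgDDX6.1 and 37.43 and 37.14 in sgDDX6.2, a fall of 0.51 (adjusted p = 2.36e-06). CCL5, a chemokine for T cells, fell by 0.48 and CD83, a marker of activated dendritic cells, by 0.33.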
